A study of Mus musculus with 67 samples.

Results

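Crypts isolated from the mouse small intestine 5 days after irradiation were compared with crypts from normal, unirradiated mice. The comparison rests on 4 bulk RNA-seq libraries, 2 of normal crypts and 2 of crypts at day 5, out of 67 samples in the series, most of which are organoids. They were chosen by the names of the columns of the deposited expression table. Both groups came from C57BL/6 mice without an engineered allele. By the study's methods, the mice irradiated were 8-week-old females and received a single dose of 12 Gy of irradiation, and crypts were released from the proximal small intestine with EDTA and passed through a strainer. The day-5 mice of these libraries received no VPA or EPZ6438, the 2 compounds given to other irradiated mice of the series, and whether they were gavaged with vehicle is not given in the sources used here. The study gives mice as the replicates of its crypt RNA-seq on the third day after irradiation, while the labels do not say that the normal and day-5 replicates are separate mice, so p-values measure the spread between libraries, which may be technical.

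The crypt is the pit at the base of each villus where Lgr5+ stem cells divide between Paneth cells, which secrete antimicrobial peptides, and renew the absorptive enterocytes and the secretory goblet, enteroendocrine and tuft cells. Ionizing radiation damages the DNA of the cycling cells and activates the transcription factor p53. The surviving epithelium then regenerates, and in the mouse this passes through a state in which genes of the fetal gut and of Clu+ revival stem cells are expressed, before the crypt returns to its adult programme.

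Values are TPM, a level per transcript length on a scale of fixed sum, after the mitochondrial genes (names starting mt-) were left out and each library was rescaled to a sum of 1000000. They are given in the order replicate 1 and replicate 2. Fold changes are differences of log2(TPM + 1), day 5 minus normal, with the standard error (SE) of the limma fit and a p-value adjusted over all genes tested by the Benjamini-Hochberg method. A gene was called where the adjusted p was under 0.05 and the change at least 2-fold. Fold changes with quantile normalization, which gives every library the same distribution of values, stand beside the main ones where stated.

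The day-5 libraries matched each other closely. Across the genes tested, Pearson's r of log2 values was 0.983 between the day-5 replicates, 0.969 between the normal replicates and 0.878 to 0.904 between a day-5 and a normal library. Genes are not independent replicates. The mitochondrial share of the deposited TPM was 18.1% and 12.7% in normal crypts, 37.9% to 48.4% at day 3 and 11.8% and 12.3% at day 5. Long transcripts (the third of genes with the longest exons, median 7849 bases) stood higher relative to short ones (median 1908 bases) at day 5, by 0.49 and 0.39 on the log2 scale against the normal mean, and lower at day 3, by 0.64 and 0.48. The part of this trend in the results was not tested, but every count was also computed with the trend removed. Genes of the Y chromosome were at most 0.19 TPM in the libraries of normal and irradiated mice that received no compounds. The epithelial marker Epcam, which encodes an adhesion molecule of all gut epithelium, was at 1073 and 983 TPM in the normal libraries and 1085 and 834 TPM at day 5, so that its level in the groups overlapped.

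**Figure D1:**
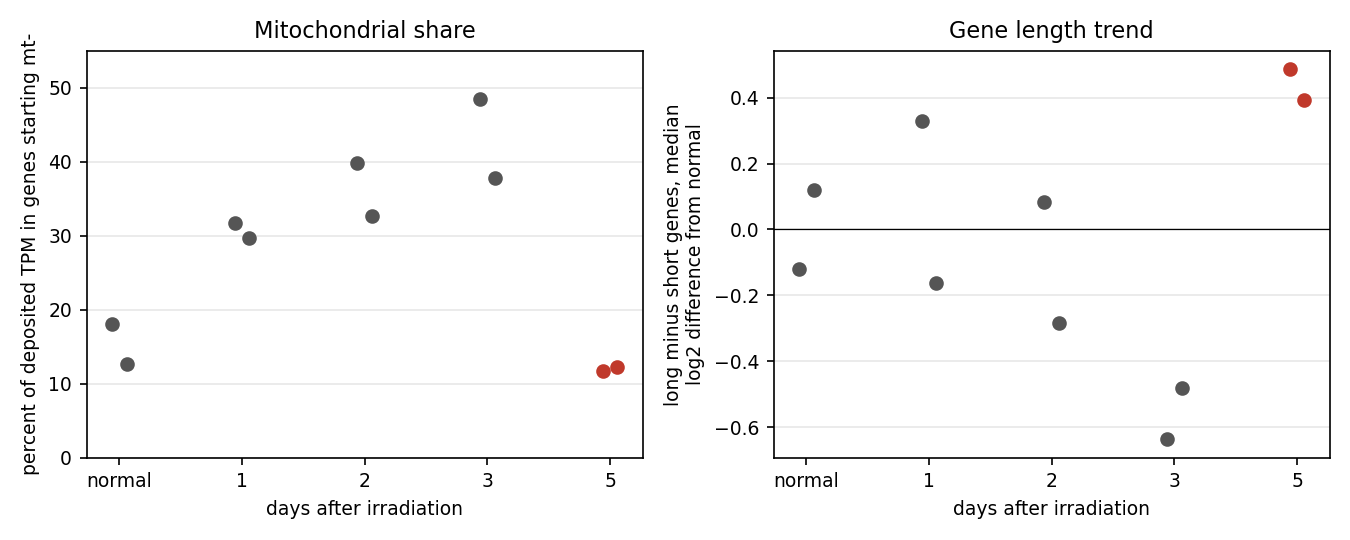
The left panel plots the percent of the deposited TPM in genes starting mt-, and the right panel the median log2 difference from the normal mean of long genes minus that of short genes, with 1 point per library, for normal crypts and for days 1, 2, 3 and 5 after irradiation. The day-5 points (red) lie at 11.8% and 12.3% on the left and are the highest on the right, at 0.49 and 0.39.

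At day 5, 881 of 11556 genes tested were called higher than in normal crypts (7.62%) and 713 lower (6.17%). The groups did not overlap in 1593 of these 1594 called genes (13.8% of those tested), and in 65% of all genes tested. The median log2 fold change over all genes was 0.17, and it was 0.09 with quantile normalization, -0.04 with scaling to the 75th percentile and 0.02 with the length trend removed. The split between higher and lower calls moved with it, to 756 and 793 with quantile normalization (6.51% and 6.83%), 499 and 926 with scaling to the 75th percentile (4.32% and 8.02%) and 577 and 820 with the length trend removed (4.99% and 7.1%). Changes close to 2-fold therefore depend on the scaling, and list medians below are to be read against the median of 0.17.

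The largest rises were led by Syt8, which encodes a synaptotagmin of the membrane-trafficking family. Syt8 (chr7:142434850-142440396, mm10, GENCODE M21) was at 0.747 and 0.931 TPM in the normal libraries and 90.5 and 149.9 TPM at day 5 (log2 fold change 6.00 ± 0.46, adjusted p = 4.29e-06). Anxa10, an annexin known as a marker of gastric epithelium, was at 0.474 and 6.21 TPM in the normal libraries and 88.7 and 140.1 TPM at day 5 (log2 fold change 5.11 ± 0.62, adjusted p = 0.000129). Fut2 (chr7:45648591-45666394, mm10, GENCODE M21), the fucosyltransferase that decorates the epithelial surface with terminal fucose, was at 1.64 and 1.12 TPM in the normal libraries and 29.9 and 158 TPM at day 5 (log2 fold change 4.89 ± 0.56, adjusted p = 9.79e-05). In each of these genes both day-5 libraries lay above both normal libraries, which the choice of the largest rises required. Day-5 replicate 2 was the higher.

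Other leading rises also differed between the day-5 libraries. Retnlb, a goblet cell peptide with antibacterial activity, was at 3.52 and 3.91 TPM in the normal libraries and 40.01 and 271 TPM at day 5 (log2 fold change 4.48 ± 0.84, adjusted p = 0.0025). Lrg1, a secreted leucine-rich glycoprotein, was at 3.42 and 0.656 TPM in the normal libraries and 15.7 and 126 TPM at day 5 (log2 fold change 4.09 ± 0.77, adjusted p = 0.00264). Gml, a GPI-anchored protein of the Ly6 family, was at 0.191 and 0.752 TPM in the normal libraries and 17.6 and 83.9 TPM at day 5 (log2 fold change 4.78 ± 0.56, adjusted p = 0.000109). Replicate 2 was the higher day-5 library in all 3, and both day-5 libraries were above both normal ones, again by the choice of genes. All 10 of the largest rises kept their call in each fit that left out 1 of the 4 libraries. In a fit of the 4 libraries alone, without the other crypt libraries to estimate the spread, Retnlb, Lrg1 and Ly6c1 were not called.

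**Figure D2:**
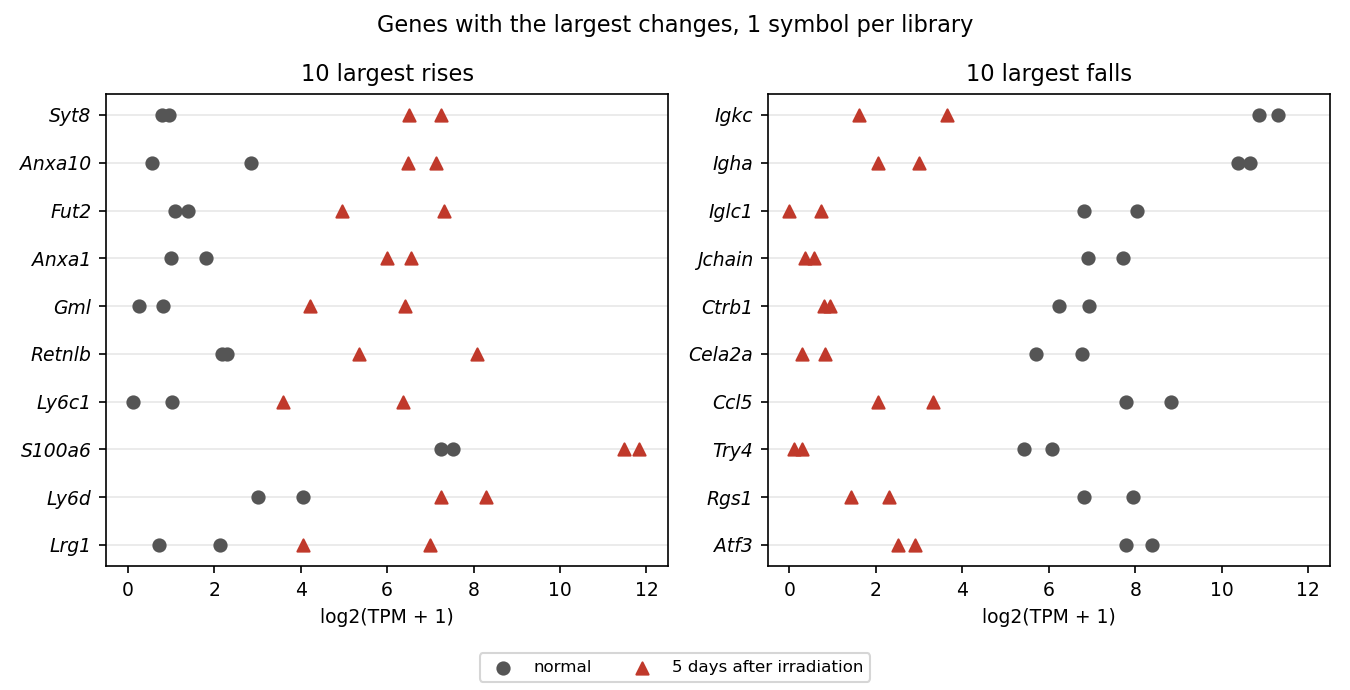
The 10 largest rises (left) and the 10 largest falls (right) at day 5, each with 1 symbol per library on a log2(TPM + 1) axis, circles for normal crypts and triangles for crypts 5 days after irradiation. The choice of these 20 genes required that the 2 triangles lie on one side of the 2 circles. Syt8 was 6.00 higher and Igkc 8.44 lower at day 5.

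Genes of the fetal and revival programme were higher at day 5. Of 30 genes in this list, 28 were tested and 19 were called higher at day 5 and none lower, against 7.62% of all genes called higher, and the median log2 fold change of the list was 1.77. The summed level of the list was 1793 and 1692 TPM in normal crypts and 7008 and 8600.5 TPM at day 5. The count of genes called higher was 18 with quantile normalization, with scaling to the 75th percentile and with the length trend removed, and 16 to 20 with 1 library left out.

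Annexins, which bind membrane phospholipids in a calcium-dependent way and take part in membrane repair, were among them. Anxa1 was at 2.53 and 1.01 TPM in the normal libraries and 63.4 and 93.1 TPM at day 5 (log2 fold change 4.87 ± 0.31, adjusted p = 1.07e-06; with quantile normalization 4.82). Anxa3 was at 2.01 and 2.37 TPM in the normal libraries and 39.8 and 70.2 TPM at day 5 (log2 fold change 4.08 ± 0.30, adjusted p = 2.94e-06). The abundant Anxa2 was at 545 and 501 TPM in the normal libraries and 1293 and 1217 TPM at day 5 (log2 fold change 1.26 ± 0.15, adjusted p = 0.000109), a smaller change from a level that was already high. Anxa5 also rose (1.31 ± 0.29, adjusted p = 0.0069; call lost without day-5 replicate 2 or normal replicate 1), so 4 annexins of this list were called, while Anxa6, a member of another list, fell from 8.05 and 5.20 to 1.17 and 0.880 TPM (-1.89 ± 0.30, adjusted p = 0.00091).

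Some genes of the Ly6 family of GPI-anchored surface proteins were also called higher. Ly6a, which encodes the stem cell antigen SCA1 that marks repairing epithelium, was at 24.6 and 11.5 TPM in the normal libraries and 177 and 458 TPM at day 5 (log2 fold change 4.00 ± 0.46, adjusted p = 9.79e-05). Ly6d was at 15.5 and 7.07 TPM in the normal libraries and 152 and 311 TPM at day 5 (log2 fold change 4.24 ± 0.39, adjusted p = 1.56e-05). Ly6c1 was at 0.0822 and 1.03 TPM in the normal libraries and 11.1 and 81.2 TPM at day 5 (log2 fold change 4.41 ± 0.69, adjusted p = 0.00083). Both day-5 libraries were above both normal libraries for each, with replicate 2 the higher. Members of this family are similar in sequence, and how the authors' counting treated reads shared between them is not given in the sources used here, so the split between them is uncertain. Ly6e, in the same list, did not pass the test (-0.59 ± 0.21).

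S100a6 was the most abundant of the 10 genes with the largest rises. This calcium-binding protein was at 151 and 182 TPM in the normal libraries and 2866 and 3609.7 TPM at day 5 (log2 fold change 4.27 ± 0.21, adjusted p = 2.34e-07; with quantile normalization 4.45). Its relative S100a11 was at 180.5 and 204 TPM in the normal libraries and 986 and 1289 TPM at day 5 (log2 fold change 2.55 ± 0.21, adjusted p = 6.19e-06). Clu, the secreted chaperone clusterin that defines revival stem cells, was at 10.5 and 8.29 TPM in the normal libraries and 76.6 and 70.1 TPM at day 5 (log2 fold change 2.85 ± 0.40, adjusted p = 0.000385). The interleukin-1 receptor antagonist Il1rn was at 4.04 and 1.25 TPM in the normal libraries and 28.8 and 34.7 TPM at day 5 (log2 fold change 3.28 ± 0.44, adjusted p = 0.000269). For all 4 the lower day-5 library was above the higher normal library. Further calls of the list were Msln, Emp1, Il33, Krt7, Cd55 and Tubb6, from 1.01 in Tubb6 to 2.68 in Msln, the surface protein mesothelin. Tubb6, a tubulin, lost its call without day-5 replicate 2 or normal replicate 1, and also with quantile normalization, with scaling to the 75th percentile and with the length trend removed. Among the members that did not pass the test were the EGF receptor ligands Areg (-0.12 ± 0.39) and Ereg (0.82 ± 0.30; called with a pseudocount of 0.1).

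The 250 bases before the start of the fetal and revival genes that rose together were searched for short motifs on both strands. RefSeq promoters (GRCm38.p6, the patched form of mm10) were at hand for 12 of the 19 genes called higher. The motif TGANTCA, the letters of an AP-1 site, was in 5 of the 12 (Sprr1a, Anxa2, S100a11, Il1rn and Emp1), and in 5.71% of the 9023 tested genes with such a sequence. GGAATG, the letters of a TEAD site, whose end letters TG can be shared with a TGANTCA match, was in 3 of the 12 and in 12.8% of those genes. The motifs were chosen after the values were seen, and a match is a description of the letters and no evidence of binding. The upstream stretches of 4 of these genes are shown 5′ to 3′ on the strand of the gene, with matches to TGANTCA in capitals, because each holds at least 1 match. They lie at chr3:92485882-92486131 (minus strand), chr3:93520246-93520495 (plus strand), chr9:69453433-69453682 (plus strand) and chr2:24336610-24336859 (plus strand).
Sprr1a: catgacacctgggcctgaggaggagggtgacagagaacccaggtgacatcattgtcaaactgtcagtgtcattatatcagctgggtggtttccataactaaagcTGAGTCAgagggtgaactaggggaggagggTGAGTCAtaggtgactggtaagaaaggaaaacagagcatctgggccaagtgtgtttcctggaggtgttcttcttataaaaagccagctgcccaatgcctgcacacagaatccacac
S100a11: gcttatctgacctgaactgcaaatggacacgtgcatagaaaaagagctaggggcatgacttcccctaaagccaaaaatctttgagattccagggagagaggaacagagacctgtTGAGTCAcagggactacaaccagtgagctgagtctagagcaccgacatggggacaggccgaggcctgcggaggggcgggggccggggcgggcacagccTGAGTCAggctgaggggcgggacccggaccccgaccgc
Anxa2: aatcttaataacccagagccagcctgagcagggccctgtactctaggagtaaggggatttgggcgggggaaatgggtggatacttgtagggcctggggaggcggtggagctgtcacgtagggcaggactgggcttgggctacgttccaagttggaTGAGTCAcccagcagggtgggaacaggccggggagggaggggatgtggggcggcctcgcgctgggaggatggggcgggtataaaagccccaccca
Il1rn: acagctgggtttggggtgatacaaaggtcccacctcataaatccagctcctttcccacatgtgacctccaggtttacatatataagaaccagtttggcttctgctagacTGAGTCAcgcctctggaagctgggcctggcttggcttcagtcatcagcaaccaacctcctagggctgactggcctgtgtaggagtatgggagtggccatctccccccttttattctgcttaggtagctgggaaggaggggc

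Genes of keratins, junctions and adhesion rose in part. Of 28 tested, 8 were called higher (7.62% of all genes were) and none lower (5 without day-5 replicate 2, 6 to 9 without each other library). Sprr2a3, a small proline-rich protein of the cornified envelope, was at 20.6 and 16.4 TPM in the normal libraries and 205 and 399 TPM at day 5 (log2 fold change 3.89 ± 0.39, adjusted p = 2.96e-05). Near-identical copies of Sprr2a make its own share uncertain. The relative Sprr1a was at 1.78 and 1.502 TPM in the normal libraries and 9.52 and 14.3 TPM at day 5 (log2 fold change 2.27 ± 0.38, adjusted p = 0.00123). Cldn2, a pore-forming claudin of crypt tight junctions, was at 28.6 and 46.7 TPM in the normal libraries and 185 and 224 TPM at day 5 (log2 fold change 2.45 ± 0.27, adjusted p = 6.19e-05). Krt23 and Krt7, keratins of low level in the normal small intestine, rose by 2.48 and 1.69 on the log2 scale, while the main keratin Krt8 was at 3016 and 3939.8 TPM in the normal libraries and 4452 and 3624 TPM at day 5 and did not pass the test (0.22 ± 0.16, adjusted p = 0.359).

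The p53 targets were mixed at day 5. Of 43 tested, 8 were called higher (7.62% of all genes were) and 4 lower (6.17% of all genes), with a list median of 0.34, and the number called higher was 5 without normal replicate 1 and 6 to 10 without each other library. Phlda3, an inhibitor of AKT signalling that p53 induces, was at 0.531 and 0.770 TPM in the normal libraries and 14.1 and 19.02 TPM at day 5 (log2 fold change 3.40 ± 0.20, adjusted p = 4.96e-07). Sulf2, a sulfatase that edits heparan sulfate, was at 10.9 and 11.96 TPM in the normal libraries and 71.9 and 66.2 TPM at day 5 (log2 fold change 2.49 ± 0.33, adjusted p = 0.000269). Cdkn1a, the cell-cycle inhibitor p21, was at 96.3 and 82.2 TPM in the normal libraries and 159 and 163 TPM at day 5; its change had an adjusted p of 0.00294 but stayed under 2-fold (0.85 ± 0.16). Mdm2 (0.29 ± 0.33) and Bax (0.42 ± 0.15) did not pass the test.

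The 4 called lower are a share near that of all genes, and some are also known from the acute stress response. Gadd45a was at 215 and 215 TPM in the normal libraries and 45.3 and 35.5 TPM at day 5 (log2 fold change -2.39 ± 0.39, adjusted p = 0.000976). Btg2, an antiproliferative immediate early gene, was at 90.4 and 118 TPM in the normal libraries and 24.9 and 14.2 TPM at day 5 (log2 fold change -2.39 ± 0.36, adjusted p = 0.000673). The stress regulator Sesn1 fell as well (-2.26 ± 0.38, adjusted p = 0.00122). Bbc3, which encodes the proapoptotic protein PUMA, was at the threshold of the fold rule (-1.002 ± 0.29, adjusted p = 0.0241; with 1 library left out -1.25 to -0.75, highest adjusted p = 0.184, called only without day-5 replicate 1).

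Glycolysis was among the metabolic lists with the most rises. Of 20 genes tested, 8 were called higher (7.62% of all genes were) and none lower (7 to 10 with 1 library left out; 8 with quantile normalization, 6 with scaling to the 75th percentile and 5 with the length trend removed). Hk1, a hexokinase that commits glucose to the pathway, was at 1.55 and 2.23 TPM in the normal libraries and 16.5 and 20.2 TPM at day 5 (log2 fold change 2.74 ± 0.32, adjusted p = 0.000109). The lactate exporter Slc16a3 was at 8.17 and 6.21 TPM in the normal libraries and 36.2 and 28.4 TPM at day 5 (log2 fold change 2.02 ± 0.32, adjusted p = 0.000783). The glucose transporter Slc2a1 was at 7.48 and 9.60 TPM in the normal libraries and 30.5 and 33.8 TPM at day 5 (log2 fold change 1.80 ± 0.32, adjusted p = 0.00165). Pfkl, the liver-type phosphofructokinase, rose as well (1.67 ± 0.29, adjusted p = 0.00156). Ldha, which makes lactate, had an adjusted p of 0.0056 but a change under 2-fold (0.71 ± 0.15).

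Of 33 glutathione and detoxification genes tested, 10 were called higher (7.62% of all genes were) and none lower (8 to 11 with 1 library left out; 9 with quantile normalization and with the length trend removed). With scaling to the 75th percentile, 7 were called higher and 3 lower (4.32% and 8.02% of all genes). Gsta3, a glutathione S-transferase, was at 16.8 and 6.89 TPM in the normal libraries and 76.8 and 81.99 TPM at day 5 (log2 fold change 2.76 ± 0.32, adjusted p = 0.000103). Gsta4, which clears products of lipid peroxidation, was at 93.7 and 92.5 TPM in the normal libraries and 325 and 416 TPM at day 5 (log2 fold change 1.97 ± 0.18, adjusted p = 1.27e-05). Gsr, the reductase that regenerates glutathione, was at 107 and 102 TPM in the normal libraries and 354 and 374 TPM at day 5 (log2 fold change 1.79 ± 0.21, adjusted p = 0.000122). Alpha-class transferases share sequence, so their split is uncertain. Nqo1, a typical target of the oxidative-stress factor NRF2, did not pass the test (0.47 ± 0.20), and neither did Hmox1 (0.66 ± 0.34).

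Lipid synthesis genes rose less firmly. In the cholesterol list 6 of 26 were called higher (7.62% of all genes were) and none lower, but only 2 without day-5 replicate 1 or normal replicate 1, 3 without day-5 replicate 2, and 2 with the length trend removed. A count of 2 is about the share of all genes. Hmgcs1, an early enzyme of the pathway, did not pass the test (0.15 ± 0.28). In the fatty acid list 4 of 12 were called higher, against the same 7.62% (1 without day-5 replicate 1, without day-5 replicate 2 or without normal replicate 1, 3 without normal replicate 2 or with quantile normalization, 2 with the length trend removed and 1 with scaling to the 75th percentile), among them the carboxylase Acaca at 1.59 and 4.86 TPM in the normal libraries and 9.13 and 9.40 TPM at day 5 (log2 fold change 1.40 ± 0.45, adjusted p = 0.0401; called only without normal replicate 2).

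Proliferation genes were called about as often as all genes. Of 53 mitosis genes, 5 were called higher (7.62% of all genes were) and none lower, with a median of 0.55, and of 50 S-phase genes, 3 were called higher with a median of 0.36. With quantile normalization, scaling to the 75th percentile and the length trend removed, the mitosis counts were 3, 2 and 1 and the S-phase counts 2, 1 and 1. The mitosis count was 0 without normal replicate 1, 1 without day-5 replicate 1, 3 without day-5 replicate 2 and 6 without normal replicate 2, and the S-phase count was 1, 1, 2 and 7 in the same order. Rrm2, the small subunit of ribonucleotide reductase, was at 19.98 and 19.5 TPM in the normal libraries and 79.4 and 101 TPM at day 5 (log2 fold change 2.13 ± 0.21, adjusted p = 2.86e-05) and kept its call without each library. Mybl2, a transcription factor of the cell cycle, was at 3.36 and 4.78 TPM in the normal libraries and 17.9 and 12.54 TPM at day 5 (log2 fold change 1.67 ± 0.37, adjusted p = 0.00646; with 1 library left out 1.43 to 1.91, highest adjusted p = 0.0642, called without day-5 replicate 2 or normal replicate 2). Mki67, the standard proliferation marker, was at 5.97 and 9.32 TPM in the normal libraries and 15.98 and 12.3 TPM at day 5 and was not called (0.82 ± 0.47, adjusted p = 0.225).

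The Reg lectins split. These C-type lectins are secreted into the lumen, and Reg3b and Reg3g bind bacteria. Reg3b was among the most abundant transcripts at 27679.9 and 10356 TPM in the normal libraries and 50864 and 84779.9 TPM at day 5 (log2 fold change 1.96 ± 0.36, adjusted p = 0.00212). With quantile normalization the change was 0.96 and was not called, and a fit of the 4 libraries alone called neither Reg3b nor Reg3g. Reg3g was at 10550.2 and 3663 TPM in the normal libraries and 16342 and 33652 TPM at day 5 (log2 fold change 1.92 ± 0.41, adjusted p = 0.00537; with quantile normalization 1.58, called; without day-5 replicate 2 the call was lost). Reg1 was lower at day 5, with 866 and 670.3 against 288 and 226 TPM (-1.58 ± 0.37, adjusted p = 0.00898; with 1 library left out -1.76 to -1.39, highest adjusted p = 0.0803, the call lost without day-5 replicate 2 or normal replicate 1). The high similarity of the Reg genes makes the division of reads between them uncertain.

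Goblet cell genes were higher in part, with 5 of 22 called higher (7.62% of all genes were) and 1 lower. The counts were 3 and 3 with scaling to the 75th percentile. The mean of the list lay 0.58 and 0.86 above normal in the day-5 libraries on the log2(TPM + 1) scale. The summed level was 13803 and 15133 TPM in normal crypts and 13996 and 16846 TPM at day 5, so that the groups overlapped. Fut2 and Retnlb, given above, were among the 5. S100a14 was at 12.9 and 15.9 TPM in the normal libraries and 112 and 138 TPM at day 5 (log2 fold change 3.03 ± 0.26, adjusted p = 7.45e-06). Muc2, the gel-forming mucin that defines goblet cells, was at 108 and 222 TPM in the normal libraries and 379.7 and 462 TPM at day 5, higher in both libraries, but was not called (1.43 ± 0.59, adjusted p = 0.0988), except in the fit of the 4 libraries alone. The trefoil peptide Tff3 (-0.35 ± 0.19) and Clca1 (-0.24 ± 0.32) were not called. Ccl6, a chemokine, fell (-1.65 ± 0.21, adjusted p = 0.000187).

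Genes of plasma cells led the falls. Igkc, the kappa light chain, was at 2509.9 and 1855 TPM in the normal libraries and 2.06 and 11.6 TPM at day 5 (log2 fold change -8.44 ± 0.55, adjusted p = 1.11e-06). Igha, the heavy chain of immunoglobulin A, was at 1599 and 1325 TPM in the normal libraries and 3.17 and 6.95 TPM at day 5 (log2 fold change -7.98 ± 0.46, adjusted p = 4.96e-07). The joining chain Jchain was at 209 and 119 TPM in the normal libraries and 0.275 and 0.483 TPM at day 5 (log2 fold change -6.85 ± 0.38, adjusted p = 4.96e-07). In the B and plasma cell list 9 of 11 tested genes were called lower (6.17% of all genes were) and none higher, with a median of -4.02 and 7 to 9 called with 1 library left out. The summed level of this list was 4819 and 3637 TPM in normal crypts and 209 and 262 TPM at day 5. The B cell receptor subunit Cd79a was at 7.34 and 7.43 TPM in the normal libraries and 0 and 0.0703 TPM at day 5. Xbp1 made up 201 and 239.8 TPM of the day-5 sum, a transcription factor which secretory epithelium also expresses and which was not called (0.39 ± 0.14). In such bulk libraries, fewer cells of a type and less RNA per cell cannot be told apart.

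All 19 tested genes of the T cell and intraepithelial lymphocyte list were called lower at day 5 (6.17% of all genes were). Their median log2 fold change was -3.08, and 15 to 19 were called with 1 library left out. Ccl5, a chemokine of cytotoxic T cells, was at 454 and 219 TPM in the normal libraries and 9.05 and 3.15 TPM at day 5 (log2 fold change -5.61 ± 0.60, adjusted p = 5.44e-05). Gzma, the protease granzyme A, was at 706 and 196 TPM in the normal libraries and 14.3 and 4.71 TPM at day 5 (log2 fold change -5.32 ± 0.69, adjusted p = 0.000224). The T cell receptor constant region Trbc2 was at 47.8 and 25.8 TPM in the normal libraries and 0.742 and 0.287 TPM at day 5 (log2 fold change -4.59 ± 0.62, adjusted p = 0.000292). The receptor's signalling chain Cd3e was at 13.3 and 7.06 TPM in the normal libraries and 0.427 and 0.0701 TPM at day 5 (log2 fold change -3.12 ± 0.47, adjusted p = 0.000652). The summed list stood at 1627 and 613 TPM in normal crypts and 40.3 and 15.4 TPM at day 5, when 18 of 23 members in the table were under 1 TPM in both libraries. Genes entered the test by their mean over all 18 crypt libraries. Members this low at day 5 could enter only through the other libraries, so the share of 19 of 19 was not free of that choice. Rgs1, a regulator of G-protein signalling known from lymphocytes and outside the list, went the same way, from 248 and 111 to 1.68 and 3.95 TPM (-5.52 ± 0.61, adjusted p = 6.73e-05).

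Myeloid genes fell in part. Of 18 tested, 9 were called lower (6.17% of all genes were) and 1 higher, but only 4 lower without day-5 replicate 1 or without normal replicate 1. Their summed level was 189.9 and 104 TPM in normal crypts and 24.9 and 60.1 TPM at day 5. Tyrobp, an adaptor of activating receptors, was at 45.5 and 20.3 TPM in the normal libraries and 0.143 and 1.08 TPM at day 5 (log2 fold change -4.35 ± 0.62, adjusted p = 0.00042). Fcer1g, an Fc receptor chain, was at 22.3 and 10.6 TPM in the normal libraries and 0.634 and 1.4997 TPM at day 5 (log2 fold change -3.02 ± 0.52, adjusted p = 0.00155). The defining macrophage markers Cd68 (3.41 and 4.22 against 1.24 and 2.58 TPM, -0.76 ± 0.39) and Csf1r (1.38 and 1.39 against 0.0691 and 0.258 TPM, -1.04 ± 0.45; called lower with the length trend removed) did not pass the test. Ly6g was the exception: it was listed at 0 in both normal libraries and was at 3.05 and 15.02 TPM at day 5 and 25.9 and 27.3 TPM at day 3. Ly6g marks neutrophils and belongs to the family of Ly6a, Ly6c1 and Ly6d, which rose at the same time. The neutrophil genes S100a8 (1.501 ± 0.82) and S100a9 (1.55 ± 0.74) were not called in the main fit. Both were called higher with a pseudocount of 0.1, and S100a9 also with the length trend removed. Another neutrophil gene, Retnlg, went the other way, with a log2 fold change of -4.31 to -3.07 with 1 library left out.

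The mast cell proteases Mcpt1 and Mcpt2 were also lower. Of 4 genes tested in the mast cell and eosinophil list, 2 were called lower (6.17% of all genes were), and the other 2 were not called. Mcpt1, a protease of mucosal mast cells, was at 46.4 and 68.6 TPM in the normal libraries and 0.352 and 0.4999 TPM at day 5 (log2 fold change -5.33 ± 0.55, adjusted p = 3.74e-05). Mcpt2 was at 19.8 and 29.04 TPM in the normal libraries and 0.941 and 1.78 TPM at day 5 (log2 fold change -3.43 ± 0.28, adjusted p = 6.41e-06). Of the stroma list only 6 genes were tested, of which Thy1 (-2.49 ± 0.45, adjusted p = 0.00195) and Vim (-1.85 ± 0.35, adjusted p = 0.00281) were called lower (6.17% of all genes were). The collagen Col1a1 was at 0.570 and 1.12 TPM in the normal libraries and 0.0396 and 0.0972 TPM at day 5. No smooth muscle gene reached the level needed for the test. One endothelial gene, Lyve1, a hyaluronan receptor, was higher, from 1.02 and 1.04 to 5.88 and 10.8 TPM (2.15 ± 0.31, adjusted p = 0.000531), while the defining endothelial markers Pecam1 and Cdh5 were at 0.265 and 0.106 TPM and 0.0120 and 0 TPM at day 5.

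Genes of antigen presentation were lower at day 5. In the MHC class II list, whose products present peptides to CD4+ T cells and are made by both epithelium and immune cells, 7 of 8 tested genes were called lower (6.17% of all genes were), under every scaling tried (6 or 7 with 1 library left out). H2-Aa was at 257 and 121 TPM in the normal libraries and 20.4 and 16.3 TPM at day 5 (log2 fold change -3.21 ± 0.38, adjusted p = 0.000117). H2-Ab1 was at 569.8 and 333 TPM in the normal libraries and 71.9 and 49.9 TPM at day 5 (log2 fold change -2.84 ± 0.36, adjusted p = 0.000181). The invariant chain Cd74 was at 1078 and 604 TPM in the normal libraries and 122 and 125 TPM at day 5 (log2 fold change -2.69 ± 0.33, adjusted p = 0.000157). Ciita, the master activator of these genes, was lower too (-1.26 ± 0.33, adjusted p = 0.0174; call lost without day-5 replicate 2 or normal replicate 1). The T cell, B cell and myeloid genes described above fell in the same libraries, and the part of those cells in this result was not tested.

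Of the MHC class I pathway, 13 of 26 were called lower (6.17% of all genes were) and 1 higher (6 lower without normal replicate 1, 8 without day-5 replicate 2 and 11 to 15 without each other library). The falls were largest in the immunoproteasome, the form of the protease that makes peptides for class I. Psmb8 was at 408 and 269.7 TPM in the normal libraries and 46.8 and 51.5 TPM at day 5 (log2 fold change -2.73 ± 0.19, adjusted p = 2.02e-06). Psmb9 was at 257 and 178 TPM in the normal libraries and 49.7 and 33.9 TPM at day 5 (log2 fold change -2.35 ± 0.23, adjusted p = 2.86e-05). The class I heavy chain H2-K1, at 1339.7 and 921 TPM in the normal libraries and 652 and 650.1 TPM at day 5, had an adjusted p of 0.0211 but a change under 2-fold (-0.77 ± 0.21), and H2-D1 did not pass the test (-0.01 ± 0.16). The non-classical H2-Q6 (-1.77 ± 0.39, adjusted p = 0.0064) and H2-Q7 (-1.76 ± 0.43, adjusted p = 0.0111), which are close copies of each other, lost their calls without day-5 replicate 1 or normal replicate 1 (with 1 library left out, H2-Q6 -2.01 to -1.54, highest adjusted p = 0.0663, and H2-Q7 -2.24 to -1.27, highest adjusted p = 0.126).

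Interferon-stimulated genes mostly did not pass the test. Of 57 tested, 8 were called lower (6.17% of all genes were) and 1 higher. The lower count was 2 without normal replicate 1 and 3 without day-5 replicate 1, below that share, 5 without day-5 replicate 2 and 18 without normal replicate 2. The GTPase Ifi47 was at 45.4 and 20.8 TPM in the normal libraries and 9.41 and 7.13 TPM at day 5 (log2 fold change -1.79 ± 0.30, adjusted p = 0.00136). Ifi27l2b was at 487 and 243 TPM in the normal libraries and 119 and 56.5 TPM at day 5 (log2 fold change -2.06 ± 0.40, adjusted p = 0.00322), and both kept their call without each library, but Ifi27l2b was not called in the fit of the 4 libraries alone. It has a close copy, Ifi27l2a.

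CCAAT, the letters bound by NF-Y in MHC class II promoters, was in all 4 of the class II promoters at hand (H2-Aa, H2-Eb1, H2-DMa and H2-DMb1), and in 40.9% of all 9023. TGACGTCA, the letters of a cAMP response element, was in H2-Aa alone of the 4 and in 3.08% of all. The stretches of H2-Aa, at chr17:34287824-34288073 (minus strand), and H2-Eb1, at chr17:34305617-34305866 (plus strand), are shown for the position of these letters before the start of the gene, with both motifs in capitals on either strand, so that ATTGG is CCAAT on the other strand.
H2-Aa: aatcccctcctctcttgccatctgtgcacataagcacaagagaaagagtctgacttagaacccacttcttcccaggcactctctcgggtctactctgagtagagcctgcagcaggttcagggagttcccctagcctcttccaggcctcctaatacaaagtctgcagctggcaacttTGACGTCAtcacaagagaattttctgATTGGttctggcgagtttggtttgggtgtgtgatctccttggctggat
H2-Eb1: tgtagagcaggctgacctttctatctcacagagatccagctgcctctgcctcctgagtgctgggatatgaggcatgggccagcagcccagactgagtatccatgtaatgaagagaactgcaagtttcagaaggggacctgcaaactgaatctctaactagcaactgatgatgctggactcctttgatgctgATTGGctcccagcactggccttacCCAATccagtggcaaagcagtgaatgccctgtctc

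Immediate early genes, which encode transcription factors and feedback inhibitors induced within minutes of growth factor or stress signals, were lower at day 5. Of 21 tested, 16 were called lower (6.17% of all genes were) and none higher, with a median of -3.14 (14 or 15 with 1 library left out, 16 or 17 under each scaling). Atf3 was at 220.1 and 332 TPM in the normal libraries and 6.53 and 4.70 TPM at day 5 (log2 fold change -5.37 ± 0.47, adjusted p = 1.08e-05). Fos, a subunit of AP-1, was at 668 and 1107 TPM in the normal libraries and 130.1 and 71.3 TPM at day 5 (log2 fold change -3.14 ± 0.53, adjusted p = 0.00137). Its relative Fosb was at 119.8 and 235 TPM in the normal libraries and 5.11 and 2.67 TPM at day 5 (log2 fold change -5.16 ± 0.78, adjusted p = 0.000649). Jun was at 363 and 564 TPM in the normal libraries and 34.99 and 19.3 TPM at day 5 (log2 fold change -4.07 ± 0.57, adjusted p = 0.000386). Egr1 was at 151 and 242 TPM in the normal libraries and 18.3 and 8.25 TPM at day 5 (log2 fold change -3.84 ± 0.63, adjusted p = 0.00106). Dusp1, a phosphatase that ends MAP kinase signals, was at 183 and 235 TPM in the normal libraries and 13.5 and 9.58 TPM at day 5 (log2 fold change -4.07 ± 0.32, adjusted p = 5.28e-06). For all of these the highest day-5 library was below the lowest normal one. Myc (0.58 ± 0.30), Fosl1 (-0.25 ± 0.45) and Fosl2 (0.12 ± 0.42) did not pass the test. TGACGTCA was in 3 of the 14 promoters at hand of the genes called lower (Dusp1, Btg2 and Maff).

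Hbegf, a ligand of the EGF receptor that is often counted among the immediate early genes, fell with them, from 125 and 156 to 6.55 and 5.66 TPM (-4.31 ± 0.40, adjusted p = 1.60e-05). Btc, another ligand of the receptor, rose from 0.839 and 1.62 to 4.77 and 4.78 TPM (1.40 ± 0.25, adjusted p = 0.00199). These were the 2 calls among 11 tested genes of the EGF family, against 7.62% of all genes called higher and 6.17% lower. With quantile normalization 2 were called higher and 1 lower.

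Genes downstream of bone morphogenetic protein (BMP) signals, which restrain the crypt base, were lower as well. Id1, an inhibitor of differentiation factors, was at 882 and 1002 TPM in the normal libraries and 145 and 129 TPM at day 5 (log2 fold change -2.77 ± 0.25, adjusted p = 1.37e-05). Id2 was at 75.3 and 78.4 TPM in the normal libraries and 12.8 and 7.07 TPM at day 5 (log2 fold change -2.88 ± 0.39, adjusted p = 0.000301). Id3 was at 504 and 546 TPM in the normal libraries and 91.2 and 99.9 TPM at day 5 (log2 fold change -2.45 ± 0.30, adjusted p = 0.000139). The inhibitory Smad6 was at 6.35 and 5.23 TPM in the normal libraries and 0.991 and 0.671 TPM at day 5 (log2 fold change -1.89 ± 0.27, adjusted p = 0.000457). All 4 kept the call in each fit with 1 library left out. Of 9 genes tested in this list, 5 were called lower (6.17% of all genes were) and 1, the receptor Bmpr1a, higher (1.22 ± 0.27, adjusted p = 0.0069; not called with scaling to the 75th percentile, with the length trend removed or without normal replicate 1).

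Paneth cell genes were lower, with 19 of 29 tested called lower (6.17% of all genes were) and 2 higher and a median of -1.68. The count called lower was 12 without normal replicate 2, 13 to 19 without each other library, and 8 with the length trend removed. Defa26, an alpha-defensin, was at 210.1 and 403 TPM in the normal libraries and 33.3 and 24.9 TPM at day 5 (log2 fold change -3.29 ± 0.31, adjusted p = 1.79e-05). Defa2 was at 4370.1 and 6325 TPM in the normal libraries and 1220.2 and 830.4 TPM at day 5 (log2 fold change -2.38 ± 0.24, adjusted p = 3.63e-05). Reads of the near-identical defensins cannot be assigned with certainty, and their summed list with the other Paneth genes was 54973 and 109174 TPM in normal crypts and 23992 and 25716 TPM at day 5. Lyz1, the lysozyme that defines the cell, was at 2928 and 6495 TPM in the normal libraries and 1979.7 and 2314 TPM at day 5, with a change at the threshold (log2 fold change -1.03 ± 0.32, adjusted p = 0.0339) that quantile normalization brought under it (-0.92) and that was called in 1 of the 4 fits with a library left out, the one without normal replicate 1. The 2 genes called higher were Mmp7, the protease that activates defensins (1.05 ± 0.31, adjusted p = 0.0288), and the phospholipase Pla2g2f (1.61 ± 0.32, adjusted p = 0.00388). Both lost the call without normal replicate 1, and Mmp7 also without day-5 replicate 2 and with scaling to the 75th percentile.

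Hormones of enteroendocrine cells were lower. Of 24 genes tested, 12 were called lower (6.17% of all genes were) and none higher, with a median of -1.13; without day-5 replicate 2 only 3 were called, without normal replicate 2 there were 7, and 9 without each other library. Chga, the granule protein chromogranin A, was at 81.3 and 145 TPM in the normal libraries and 23.1 and 11.5 TPM at day 5 (log2 fold change -2.66 ± 0.42, adjusted p = 0.00086). Cck, cholecystokinin, was at 169 and 143 TPM in the normal libraries and 53.9 and 32.01 TPM at day 5 (log2 fold change -1.88 ± 0.24, adjusted p = 0.000229), and these kept their call in every such fit. Ghrl, ghrelin, was at 112 and 158 TPM in the normal libraries and 38.5 and 25.6 TPM at day 5 (log2 fold change -2.05 ± 0.44, adjusted p = 0.00578), and lost its call without day-5 replicate 2. Of the transcription factors that direct the lineage, Neurog3 was called lower (-1.16 ± 0.38, adjusted p = 0.0427; kept only without normal replicate 1, and lost with quantile normalization) and Neurod1 (-0.60 ± 0.24) and Insm1 (-0.42 ± 0.25) were not.

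Tuft cell genes were at low levels. Their defining marker Dclk1 was at 0.643 and 0.170 TPM in the normal libraries and 0.162 and 0.278 TPM at day 5. Of 10 genes tested, 5 were called lower (6.17% of all genes were) and 1, the actin-bundling protein Avil, higher (1.67 ± 0.46, adjusted p = 0.0214; call lost without day-5 replicate 2 or normal replicate 1). Only 1 was lower without normal replicate 1, 2 without day-5 replicate 1 or normal replicate 2 and 3 without day-5 replicate 2. Alox5ap, which makes leukotriene precursors in tuft and myeloid cells, was at 10.3 and 10.4 TPM in the normal libraries and 0.809 and 0.424 TPM at day 5 (log2 fold change -2.82 ± 0.52, adjusted p = 0.00218). Lrmp, likewise known from blood cells, was also called lower, and the call was kept only without day-5 replicate 2.

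Most genes of the adult stem cell programme did not pass the test. Of 20 crypt base genes tested, 1 was called higher and 3 lower (6.17% of all genes were lower), with a median of 0.14, and none of these 4 kept its call in each fit with 1 library left out. The summed level of the list was 554 and 949 TPM in normal crypts and 467 and 376 TPM at day 5, lower in both day-5 libraries. This sum is weighted by 1 gene, Olfm4, which made up 280.1 and 475 TPM of it in normal crypts and 184 and 129 TPM at day 5. Lgr5, the receptor that defines the stem cells, was at 0.766 and 1.99 TPM in the normal libraries and 1.39 and 1.22 TPM at day 5 (0.00 ± 0.32, adjusted p = 0.994). Olfm4, an abundant secreted marker of the crypt base, was at 280.1 and 475 TPM in the normal libraries and 184 and 129 TPM at day 5 (-1.24 ± 0.41, adjusted p = 0.0454; not called with quantile normalization or with any library left out). Ascl2, the transcription factor of stem cell identity, was at 6.07 and 16.6 TPM in the normal libraries and 4.36 and 4.31 TPM at day 5 (-1.06 ± 0.34, adjusted p = 0.0391; with 1 library left out -1.72 to -0.40, highest adjusted p = 0.34, called only without normal replicate 1). Clca3b, a chloride channel accessory protein, was at 90.2 and 142 TPM in the normal libraries and 40.6 and 27.98 TPM at day 5 (-1.72 ± 0.44, adjusted p = 0.014; call lost without day-5 replicate 2 or normal replicate 2).

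Wnt and YAP target genes were likewise mostly not called. Of 9 Wnt feedback genes tested, 1, Ascl2, was called lower, as given above (6.17% of all genes were), and 1 higher (7.62% of all genes). Cd44, an adhesion receptor and Wnt target, rose from 3.88 and 5.29 to 17.4 and 16.8 TPM (1.71 ± 0.34, adjusted p = 0.0039) and kept its call with each library left out, while Axin2 was at 10.7 and 21.5 TPM in the normal libraries and 14.4 and 8.98 TPM at day 5 and was not called (-0.39 ± 0.53, adjusted p = 0.639). Of 15 YAP target genes tested, Anxa1 and Il33 were called higher (7.62% of all genes were) and Anxa6 lower (6.17% of all genes). Il33, an alarmin cytokine, was at 3.86 and 3.70 TPM in the normal libraries and 10.9 and 24.4 TPM at day 5 (1.86 ± 0.35, adjusted p = 0.00254). Ankrd1, a classic YAP target, was listed at 0 in all 4 libraries.

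Of 52 absorptive enterocyte genes, 5 were called higher (7.62% of all genes were) and 1 lower (6.17% of all genes were), with a median of 0.12 (2 higher without day-5 replicate 2 or normal replicate 2, 4 without each other library). The lower count was 3 with quantile normalization or without day-5 replicate 1, and 4 with scaling to the 75th percentile or with the length trend removed. Slc10a2, the bile acid transporter, was at 6.57 and 5.09 TPM in the normal libraries and 26.7 and 30.5 TPM at day 5 (log2 fold change 2.12 ± 0.46, adjusted p = 0.00575) and kept its call without each library. Cyp3a25, a drug-metabolizing enzyme, was at 37.9 and 19.6 TPM in the normal libraries and 6.43 and 1.56 TPM at day 5 (log2 fold change -2.70 ± 0.73, adjusted p = 0.0193), and lost its call without day-5 replicate 2 or normal replicate 1. Alpi, the brush-border alkaline phosphatase, did not pass the test (0.38 ± 0.36).

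Cytokines and chemokines were mixed, with 3 of 24 called higher (7.62% of all genes were) and 8 lower (6.17% of all genes were). Without day-5 replicate 1 these counts were 5 and 4, without day-5 replicate 2 they were 1 and 4, and without normal replicate 1 they were 2 and 3. Cxcl2, a neutrophil attractant, was at 44.8 and 11.5 TPM in the normal libraries and 0.667 and 0.897 TPM at day 5 (log2 fold change -3.75 ± 0.72, adjusted p = 0.00281). Il1b, which myeloid cells make, was at 12.9 and 4.67 TPM in the normal libraries and 0.162 and 0.422 TPM at day 5 (log2 fold change -2.79 ± 0.69, adjusted p = 0.0127; call lost without each library other than normal replicate 2). Duox2, the epithelial NADPH oxidase, rose (1.76 ± 0.46, adjusted p = 0.0155), but its call was kept only without day-5 replicate 1.

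Transcripts of the exocrine pancreas were present in normal crypts, and at day 5 most of this list, 12 of 14 genes, were under 1 TPM in both libraries. Ctrb1, chymotrypsinogen, was at 74.2 and 121 TPM in the normal libraries and 0.929 and 0.743 TPM at day 5 (log2 fold change -5.71 ± 1.43, adjusted p = 0.0135). Cela2a, an elastase, was at 50.9 and 108 TPM in the normal libraries and 0.219 and 0.781 TPM at day 5 (log2 fold change -5.68 ± 1.501, adjusted p = 0.0176). Try4, a trypsinogen, was at 41.9 and 66.9 TPM in the normal libraries and 0.0814 and 0.231 TPM at day 5 (log2 fold change -5.55 ± 1.25, adjusted p = 0.00761). The day-5 libraries were far below the normal ones, but the SE are large, and 11 of 13 tested genes of the list were called lower (6.17% of all genes were) but only 3 or 4 with any 1 library left out. Try4 kept its call, and Ctrb1 (with 1 library left out -6.06 to -5.36, highest adjusted p = 0.0746) and Cela2a (-6.21 to -5.14, highest adjusted p = 0.0892) lost it in each of these fits. The summed list was 469 and 682 TPM in normal crypts and 132 and 97.6 TPM at day 5. Of the day-5 sum, the elastase gene Cela1, which was not called (-0.57 ± 0.57), made up 68.4 and 54.2 TPM, and Gcg, the proglucagon gene that enteroendocrine cells of the gut also express and 1 of the 11 called lower (-1.36 ± 0.23), made up 61.7 and 41.1 TPM. The trypsins and elastases have close copies, so that single genes are uncertain.

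The study built an injury signature from published data on repairing epithelium after irradiation, helminth infection and colitis, made of 63 genes that rise and 54 that fall. Of 61 rising genes tested here, 17 were called higher and 10 lower at day 5, against 7.62% and 6.17% of all genes (15 and 12 with quantile normalization; 13 to 19 higher with 1 library left out, and 5 lower without normal replicate 1, 6 without day-5 replicate 1 and 8 or 12 without the others), with a median of 0.28. The 17 include Lrg1, Ly6a, S100a11, Sulf2 and Sprr1a, and the 10 lower include the antigen presentation genes Cd74, H2-Ab1, Tap1 and H2-Q7 (the call of Tap1 was lost without day-5 replicate 2 or normal replicate 1) and the immune cell gene Srgn (71.6 and 29.3 against 2.26 and 3.06 TPM; -3.69 ± 0.53, adjusted p = 0.000441). Of 53 falling genes tested, 13 were called lower (6.17% of all genes were) and 1, the retinal dehydrogenase Aldh1a1, higher (1.54 ± 0.33, adjusted p = 0.00536; not called without normal replicate 2), with a median of -0.66. The lower count was 4 without day-5 replicate 2, 7 without normal replicate 1, 22 without day-5 replicate 1 and 21 with scaling to the 75th percentile. Adh1, an alcohol dehydrogenase, and Oat, an aminotransferase, were among the 13 (-2.02 ± 0.53, adjusted p = 0.0168, and -1.81 ± 0.27, adjusted p = 0.000531). Oat kept its call without each library, and Adh1 only without day-5 replicate 1.

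**Figure D3:**
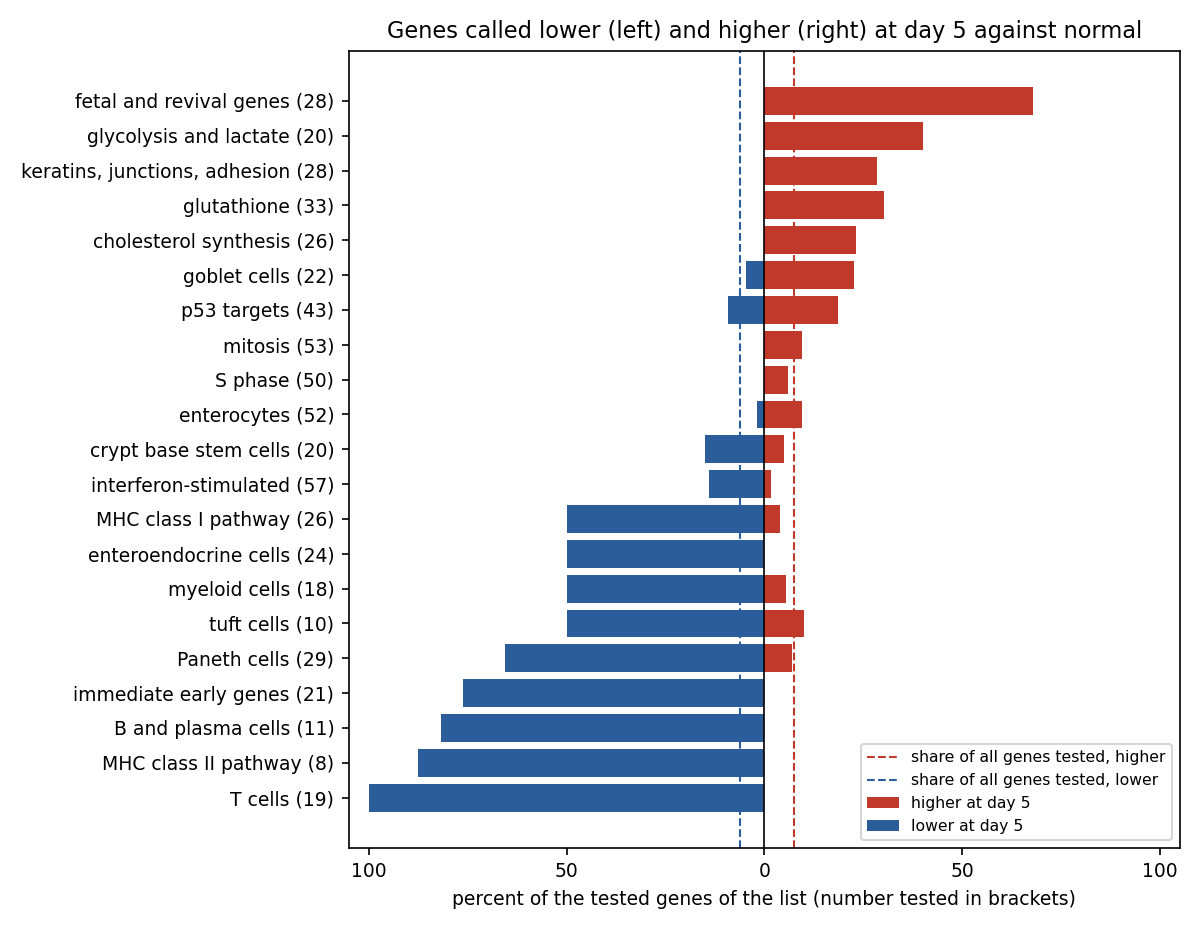
For 21 gene lists, the percent of tested genes called lower (blue, to the left) and higher (red, to the right) at day 5, with the number tested in brackets. Dashed lines mark the shares of all genes tested, 6.17% lower and 7.62% higher. The T cell list reaches 100% lower with 19 genes, and the fetal and revival list has 19 of 28 called higher. Genes entered by their mean over all crypt libraries, so members low at day 5 entered through the other libraries.

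Day 5 was also compared directly with day 3, without the normal libraries. The counts depended on the scaling. With the main scaling 4176 genes were called higher at day 5 (36.1%) and 627 lower (5.43%), with a median log2 difference of 0.69, but 1729 and 1370 with quantile normalization (14.9% and 11.8%), 1782 and 1760 with scaling to the 75th percentile (15.4% and 15.2%) and 1237 and 1387 with the length trend removed (10.7% and 12%). The groups did not overlap in 81.9% of all genes tested. Differences from day 3 are therefore given only where the direction of a list is the same under each of these scalings.

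The fetal and revival genes were lower at day 5 than at day 3. Of 28 tested, 17 were lower than at day 3 (5.43% of all genes were) and 1 higher (20 and 0 with quantile normalization; 13 to 19 lower with 1 library left out). Their summed level was 21186 and 24616 TPM at day 3 against 7008 and 8600.5 TPM at day 5. S100a6 was at 11786 and 13844 TPM at day 3 (log2 fold change -1.99 ± 0.21, adjusted p = 3.04e-05), Anxa1 at 335 and 311 TPM (log2 fold change -2.05 ± 0.31, adjusted p = 0.000203) and Clu at 200.1 and 272 TPM (log2 fold change -1.66 ± 0.40, adjusted p = 0.00336). The p53 targets went the same way, with 13 of 43 lower (5.43% of all genes) and 2 higher (24 and 1 with quantile normalization). Phlda3 was at 167 and 198 TPM at day 3 (log2 fold change -3.39 ± 0.20, adjusted p = 6.78e-07), so that its day-5 level lay between day 3 and normal. Syt8 and Anxa10, the genes with the largest rises against normal, were at 66.5 and 62.6 TPM and 175 and 206 TPM at day 3, in this order, and were not called between the days. This depends on the scaling, since Anxa10 was called lower at day 5 with scaling to the 75th percentile and Syt8 higher with the mitochondrial genes kept.

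Mitosis genes moved in the opposite direction. Of 53 mitosis genes, 50 were higher at day 5 than at day 3 (36.1% of all genes were) and none lower, with a list median 1.20 above that of all genes. The count was 30 with quantile normalization, 32 with scaling to the 75th percentile and 29 with the length trend removed, and 44 to 51 with 1 library left out. Mki67 was at 0.165 and 0.182 TPM at day 3 and at 15.98 and 12.3 TPM at day 5 (log2 fold change 3.68 ± 0.47, adjusted p = 7.42e-05; with quantile normalization 3.35). Of 50 S-phase genes, 28 were higher at day 5 and none lower. With quantile normalization 9 were, which is near the 14.9% of all genes called higher there. Olfm4 was at 18.9 and 11.04 TPM at day 3 (log2 fold change 3.32 ± 0.41, adjusted p = 6.96e-05), and its day-5 level of 184 and 129 TPM lay between day 3 and normal.

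The largest rises from day 3 were in Dmbt1, a secreted mucosal scavenger protein (36.7 and 68.2 TPM at day 3, 1642 and 2125 TPM at day 5; log2 fold change 5.19 ± 0.27, adjusted p = 3.50e-07), Gstm3 (6.32 and 1.83 and 141 and 111 TPM; log2 fold change 4.79 ± 0.46, adjusted p = 2.40e-05) and Pigr, the receptor that carries immunoglobulin A across the epithelium (22.7 and 8.28 and 502 and 309 TPM; log2 fold change 4.73 ± 0.57, adjusted p = 6.28e-05). None of the 3 was called between day 5 and normal (0.70 ± 0.27, -0.69 ± 0.46 and -1.10 ± 0.57), except Pigr, which was called lower in the fit of the 4 libraries alone. The cytoskeletal genes Epb41l3 (log2 fold change 4.31 ± 0.54, adjusted p = 7.01e-05) and Myh9 (log2 fold change 4.20 ± 0.68, adjusted p = 0.000299) completed the 5. All 5 were also called with quantile normalization and with the length trend removed.

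T cell genes were present at day 3 and low at day 5. All 19 tested genes of the list were lower at day 5 (5.43% of all genes were; 20 of 20 with quantile normalization, 15 to 19 with 1 library left out). The limit on which genes entered the test, given above for this list, holds here too. The day-3 libraries differed, with a summed level of 2518 and 565 TPM. Gzma was at 1258 and 262 TPM at day 3 (log2 fold change -5.94 ± 0.69, adjusted p = 5.14e-05) and Ccl5 at 609 and 128 TPM (log2 fold change -5.44 ± 0.60, adjusted p = 4.22e-05). Rgs1 and Cela2a, the latter without a call once day-3 replicate 2 or day-5 replicate 1 was left out, were also among the 5 largest falls. So was Amy2a1, a pancreatic amylase, which was at 13.3 and 78.98 TPM at day 3 and is listed at 0 in both day-5 libraries, with its call lost without day-3 replicate 2. MHC class II genes were lower at day 5 than at day 3 in 6 of 8, under quantile normalization and with the length trend removed as well. For this list and the next, the shares of all genes were 5.43% lower and 36.1% higher (11.8% and 14.9% with quantile normalization). Of 57 interferon-stimulated genes 29 were lower than at day 3 and 3 higher (40 and 0 with quantile normalization; 22 to 30 lower with 1 library left out).

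**Figure D4:**
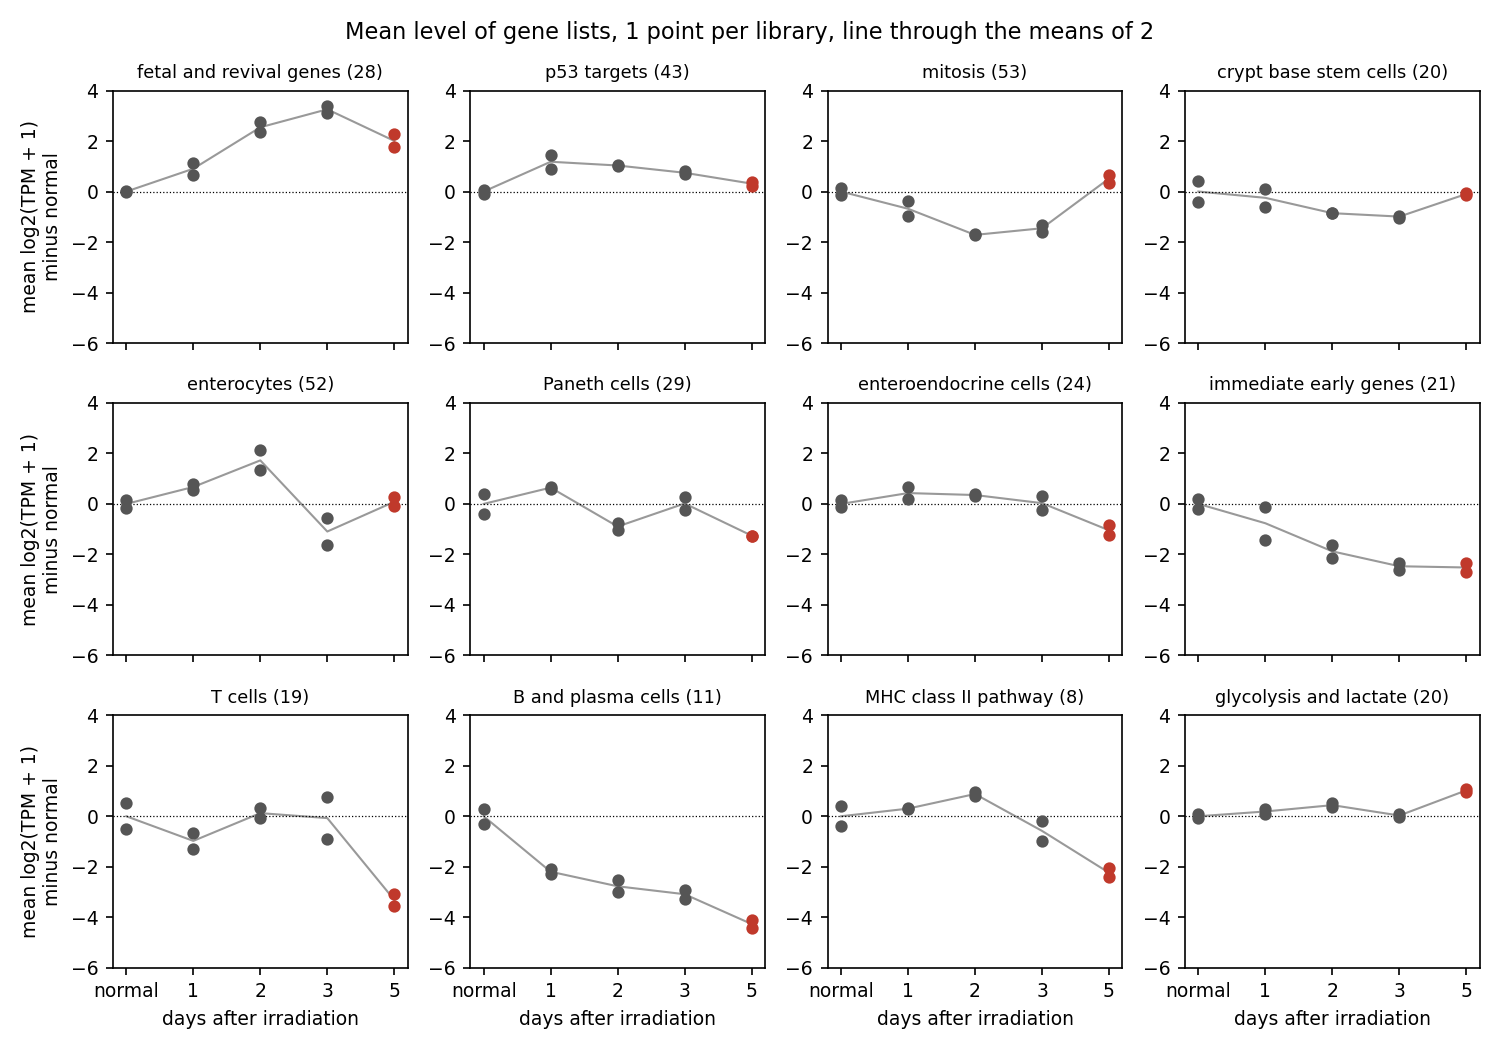
Mean log2(TPM + 1) over the tested genes of 12 lists (number in brackets) minus the mean of the normal libraries, with 1 point per library at normal and at 1, 2, 3 and 5 days after irradiation and a line through the means. At day 5 (red) the fetal and revival genes are at 1.75 and 2.26, below day 3 at 3.12 and 3.39, mitosis genes are at 0.67 and 0.36, and T cell and B cell genes are at their lowest of the 5 time points, at -3.08 and -3.54 and at -4.43 and -4.10.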

How the data were processed

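RNA was measured by bulk RNA-seq of isolated crypts. Per the labels and the study's methods, the authors trimmed reads with Trimmomatic 0.39, aligned them to mm10 with STAR 2.7.3a and counted them per gene with featureCounts; the deposited values are TPM for 29579 genes, and how counts became TPM, the strand setting and the depth of the libraries are not given in the sources used here. TPM keeps no depth, so no count test was used.

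The 13 genes starting mt- were left out and each library was rescaled. All 18 crypt libraries (9 groups: normal, days 1, 2, 3 and 5, and days 1, 2, 3 and 5 with VPA and EPZ6438 given together) entered 1 fit of log2(TPM + 1) with limma 3.58.1 in R 4.3.3 (eBayes with trend and robust), which tested genes averaging 1 TPM or more over these libraries. A gene low in 1 group could thus be tested through the others. The members and the gene lists were chosen with earlier results of these data known. Genes were named as the 10 largest rises and falls (5 against day 3) called with both scalings, among genes whose compared libraries did not overlap. Predicted genes and variable immunoglobulin segments were left out. Also named were the first and up to 4 called genes of each list. Some genes under this rule are not reported here. Other genes named were chosen after their values were seen, as were the motifs and the removal of the length trend, which used exon lengths from GENCODE M21 (29574 genes matched). In data simulated for 11450 genes, the fit recovered 16, 35, 41 and 47 of 50 genes changed by 1, 1.5, 2 and 3 on the log2 scale, with 6 false calls. The changes were placed only in genes above a minimum level. The simulated libraries had independent noise and no length trend, scaling shift or other group difference, so these counts do not carry over to the real comparison. Alternatives were other scalings, pseudocounts, level minimums, library sets and a replicate block.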

Additional observations from a re-analysis of the deposited data

How the results depend on the processing

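The counts of genes called at day 5 against normal crypts, 881 higher and 713 lower, moved by more than 1.5 times in some settings. The higher count was 499 with scaling to the 75th percentile, 577 with the length trend removed (a setting chosen after seeing the data) and 1610 with no minimum fold, and the lower count was 415 with a minimum mean of 5 TPM. Leaving out 1 library gave 466 (without normal replicate 1) to 963 higher and 423 (without day-5 replicate 2) to 605 lower, with 462 lower without normal replicate 1 and 530 higher without day-5 replicate 2. Against day 3, the 4176 higher were 1729 with quantile normalization, 1782 with scaling to the 75th percentile, 1237 with the length trend removed and 6759 with the mitochondrial genes kept, and the 627 lower were 1370, 1760, 1387 and 282 in the same order, 368 with a minimum mean of 5 TPM and 981 with no minimum fold. Leaving out 1 library there gave 3417 to 4281 higher and 495 to 655 lower. The causes were not tested.

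The replicate numbers do not pair the libraries: the correlation of deviations of same-numbered libraries was -0.0351 between day 5 and normal and 0.0442 between day 5 and day 3. With the replicate block, 931 genes were higher and 757 lower against normal, and 4209 and 634 against day 3, and no gene named here lost its call.

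Of 167 genes named and tested, 130 were called against normal, and 94 kept the call under every alternative tried. None reversed. A fit of the 4 libraries alone lost 13 of these calls, quantile normalization 5, scaling to the 75th percentile 3, the removed length trend 7, and leaving out a library between 13 and 24. With 2 libraries a group and no depth in TPM, changes near 2-fold and levels near 1 TPM are the least certain.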

Other observations

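Arginine metabolism and the handling of retinoids and foreign compounds held a few calls at day 5. Ass1, which makes argininosuccinate from citrulline, was at 6.62 and 8.83 TPM in the normal libraries and 43.8 and 40.3 TPM at day 5 (log2 fold change 2.31 ± 0.26, adjusted p = 9.42e-05), and the call was kept without each library. It was the single rise among 11 tested genes of the urea cycle and arginine list (7.62% of all genes were called higher). In this list 2 were called lower (6.17% of all genes were), 4 with quantile normalization or scaling to the 75th percentile and 3 with the length trend removed. Of 37 retinoid and xenobiotic genes 2 were called higher (7.62% of all genes were) and 5 lower (6.17% of all genes; 9 with quantile normalization, none without day-5 replicate 2 or normal replicate 1).

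Of 19 stress and hypoxia genes, 3 were called higher (7.62% of all genes were) and 3 lower (6.17%; the counts were 4 and 5 with quantile normalization and 3 and 6 with scaling to the 75th percentile). Egln3, an oxygen-sensing prolyl hydroxylase, was at 8.61 and 4.48 TPM in the normal libraries and 40.9 and 28.7 TPM at day 5 (log2 fold change 2.28 ± 0.30, adjusted p = 0.000245), and Asns, asparagine synthetase, rose (1.51 ± 0.27, adjusted p = 0.00195). Dnajb1, a co-chaperone, fell (-1.996 ± 0.29, adjusted p = 0.000461). Dll1, a Notch ligand of secretory progenitors, was called lower (-1.54 ± 0.43, adjusted p = 0.0219). It was the single call among 12 Notch genes (6.17% of all genes were called lower), and the call was kept only without day-5 replicate 1. The haemoglobin gene Hba-a2, which has a near-identical copy, was at 50.3 and 9.42 TPM in the normal libraries and 0 and 0.173 TPM at day 5 (log2 fold change -4.42 ± 0.57, adjusted p = 0.000233). Of the skeletal muscle and glia lists, 3 and 1 genes were tested with limma, and none was called or had an unadjusted p under 0.05.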
